A study of Mus musculus with 13 samples.

Results

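The microRNAs (miRNAs) described here are miR-199 and miR-214, which were chosen as the mature products of the 4 mouse hairpins mmu-mir-199a-1, mmu-mir-199a-2, mmu-mir-199b and mmu-mir-214, out of 903 hairpins with reads. They were selected on their counts, as counts per library total, in the 4 groups of genotype and region. Their levels, folds, intervals and counts past a threshold, adjusted or not, are therefore a description that supports nothing by itself. No p-value is given for a member. Both arms of each hairpin had reads, giving 8 pairs of a hairpin and a mature miRNA among the 1514 pairs listed. miR-199a-3p and miR-199b-3p have the same sequence and share their reads, and miR-199a-5p comes from a pair of hairpins, so 5 distinct members remain: miR-199a/b-3p, miR-199a-5p, miR-199b-5p, miR-214-5p and miR-214-3p.

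The libraries hold small RNA from mouse brains in 4 groups: the hippocampus of 3 FVB/N and 3 TgR mice and the prefrontal cortex (PFC) of 3 FVB/N and 4 TgR mice. No treatment of the sequenced mice is named in the sources used here. FVB/N is the parent strain. TgR mice carry, on that strain, a transgene for human AChE-R (hACHE-R overexpression), the stress-associated read-through splice form of acetylcholinesterase, which is driven throughout life by a minimal cytomegalovirus promoter-enhancer and not by a cell type's own promoter. TgR mice vary in their stereotypic behavior, and those sequenced were taken without regard to it. Each library came from 1 mouse, the ages of the sequenced mice are not given in the sources used here, and nothing says whether both regions came from the same mice.

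MicroRNAs are cut from hairpin transcripts, and either arm of a hairpin (5p or 3p) can be loaded into an Argonaute protein, where the seed near its 5′ end pairs with target messenger RNAs. miR-199a and miR-214 are known as miRNAs of mesenchyme, that is fibroblasts, smooth muscle cells, pericytes and the developing skeleton, and one long noncoding RNA, Dnm3os, carries both of them. In brain tissue such cells lie mainly in the walls of blood vessels and in the meninges. In pieces of tissue like these, fewer cells of a type and less RNA per cell cannot be told apart.

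All 4 hairpins lie within genes of the dynamins, GTPases that pinch off membrane vesicles, on the strand opposite to the dynamin gene (mouse build GRCm38.p6). The mmu-mir-199a-2 hairpin was located at chr1:162217814-162217923 on the plus strand and mir-214 at chr1:162223368-162223477 on the same strand. Both are exonic in Dnm3os (chr1:162217623-162225550) and lie inside an intron of Dnm3 on the minus strand, with 5444 bases between them. The second miR-199a hairpin, mir-199a-1, was found at chr9:21496495-21496564 on the minus strand, in an intron of Dnm2, which runs on the plus strand. mir-199b was found at chr2:32318460-32318569 on the plus strand, in an intron of Dnm1, which runs on the minus strand. mir-3120, the hairpin antisense to mir-214, was not listed in any library.

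The mature sequences are given below because the first of them is the reason why 3 of the hairpins cannot be told apart by their 3p reads. They were taken from RefSeq on GRCm38.p6, which matched 5 of the 6 mature names. All but miR-199b-5p had an entry. Capitals mark the seed, bases 2 to 8.
miR-199a-3p and miR-199b-3p: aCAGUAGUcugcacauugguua
miR-199a-5p: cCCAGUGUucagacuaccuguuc
miR-214-5p: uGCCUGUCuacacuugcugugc
miR-214-3p: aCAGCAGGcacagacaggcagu
The 4 sequences have 4 different seeds, and the seed of miR-199b-5p was not compared. miR-761 has the seed of miR-214-3p and was not listed in any library. The sequences are 22 or 23 bases long, so levels were compared between members without a correction for length. Whether the library preparation captures them equally well was not tested, so comparisons between members or arms are of reads.

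The shared sequence was visible in the counts. The 3p reads listed at mir-199a-1 and at mir-199b were equal in 13 of 13 libraries, and those at mir-199a-2 differed from them by at most 2 reads. miR-199a-5p had equal counts at both of its hairpins in 11 of 13 libraries and differed by at most 1 read in the others. The files therefore do not assign miR-199a/b-3p to any of 3 hairpins, nor miR-199a-5p to mir-199a-1 or mir-199a-2, whereas miR-199b-5p and both arms of mir-214 each belong to 1 hairpin.

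Library totals ranged from 8769851 to 18385985 counts. Levels are in CPM (counts scaled to a common library size) normalized over all 13 libraries by the trimmed mean of M values (TMM), and 3 counts, taken as the floor below which a level is not read, came to between 0.158 and 0.313 CPM. In the hippocampal libraries 35.4 to 38.8% of the reads fell on the 5 pairs with the highest counts, and in the PFC libraries 42.4 to 46.8%. The neuronal list of 7 mature miRNAs, which includes miR-128-3p, summed to between 162664.6 and 269654.4 CPM in the 13 libraries, so the libraries labelled as brain regions carried abundant neuronal miRNAs.

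The members covered a wide range of abundance and all 5 had reads in 13 of 13 libraries. miR-199a/b-3p was the most abundant, with a mean of 77.5 CPM and rank 197 among 1384 mature miRNAs, followed by miR-199a-5p with a mean of 33.8 CPM and rank 256. CPM values depend on the library total, which counts some reads at several hairpins: with 1 row per mature miRNA, the group means of miR-199a/b-3p were 133.4 CPM in FVB/N hippocampus, 125.2 in TgR hippocampus, 102.8 in FVB/N PFC and 139.2 in TgR PFC, in the same order from highest to lowest group as without this change. miR-199b-5p (rank 499), miR-214-5p (rank 532) and miR-214-3p (rank 616) lay near or below 2 CPM in most libraries. The ratio of the highest to the lowest library was 2.66 for miR-199a/b-3p, 2.45 for miR-199a-5p and 2.80 for miR-199b-5p. It was 5.25 for miR-214-5p, which had 7 to 42 reads, and is not given for miR-214-3p, whose lowest library held 2 reads.

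**Figure D1:**
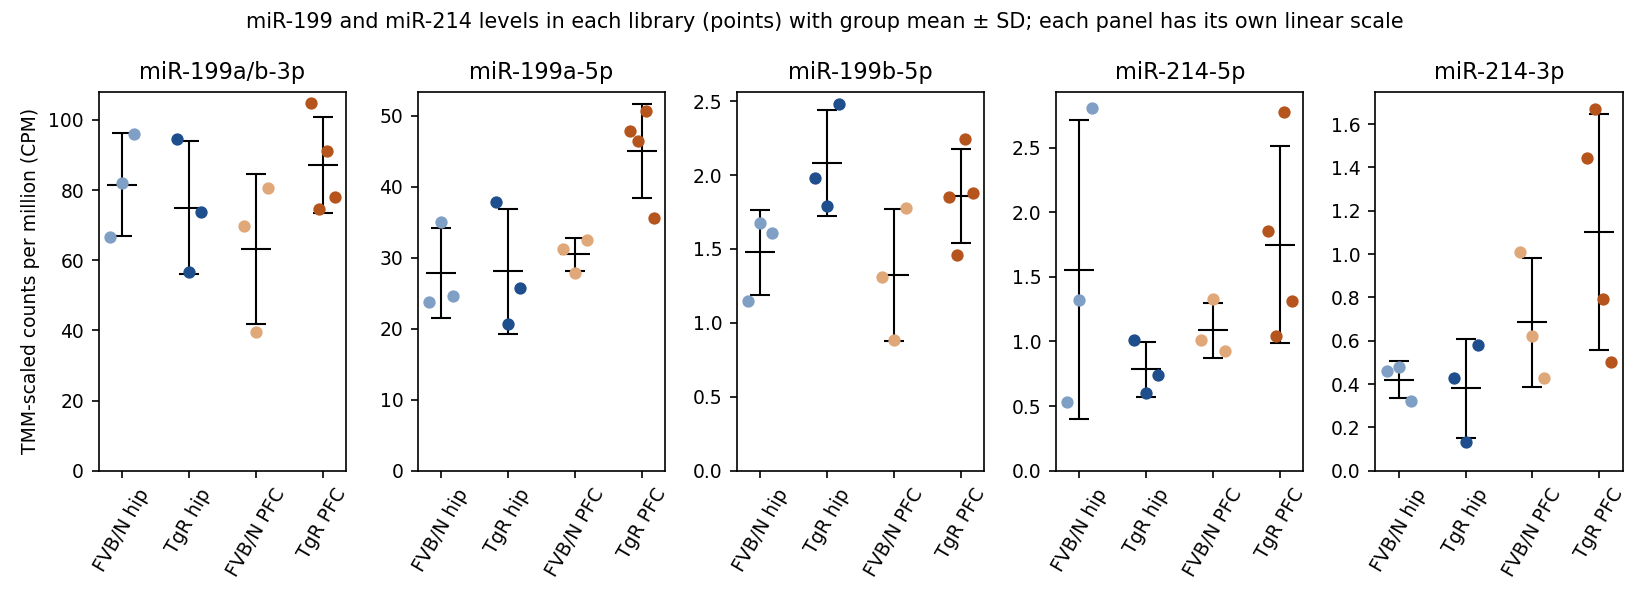
Level of each member in every library, in TMM-scaled CPM on a linear axis from 0 that differs between panels. Points are libraries and bars are the group mean ± SD (n = 3, and n = 4 for TgR PFC). For miR-199a-5p the 4 TgR PFC libraries, at 35.5 to 50.6 CPM, lie above the 3 FVB/N PFC libraries, at 27.9 to 32.4 CPM.

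miR-199a/b-3p, known to repress the mTOR kinase and the receptor MET, was present at 66.6, 82.1 and 95.9 CPM in FVB/N hippocampus replicates 1 to 3 and at 94.5, 56.7 and 73.6 CPM in TgR hippocampus replicates 1 to 3. In the PFC it was present at 69.9, 39.4 and 80.6 CPM in the FVB/N libraries and at 104.7, 74.7, 91.0 and 77.9 CPM in TgR replicates 1 to 4. These values rest on 445 to 1768 reads. The highest library was TgR PFC replicate 1 and the lowest FVB/N PFC replicate 2, and the genotypes overlapped in both regions. The group means were 87.1 ± 13.7 CPM (SD, n = 4) in TgR PFC, 81.5 ± 14.7 (n = 3) in FVB/N hippocampus, 75.0 ± 18.9 (n = 3) in TgR hippocampus and 63.3 ± 21.4 (n = 3) in FVB/N PFC. Each neighbour in that order differed from the next by less than the SD of either group.

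miR-199a-5p, known to repress Hif1a, was present at 23.7, 35.1 and 24.6 CPM in the FVB/N hippocampus and at 37.8, 20.6 and 25.7 CPM in the TgR hippocampus. Its levels in the PFC were 31.2, 27.9 and 32.4 CPM in FVB/N and 47.8, 46.4, 50.6 and 35.5 CPM in TgR. The hippocampal groups overlapped, with TgR replicates 1 and 2 as the highest and the lowest of the 6 libraries. In the PFC 4 of 4 TgR libraries lay above all 3 FVB/N libraries, a pattern of no overlap in either direction that 37 of 730 pairs tested there had (5.07%). The group means were 45.1 ± 6.62 CPM (n = 4) in TgR PFC, 30.5 ± 2.34 (n = 3) in FVB/N PFC, 28.1 ± 8.84 (n = 3) in TgR hippocampus and 27.8 ± 6.32 (n = 3) in FVB/N hippocampus. The first step of that order exceeded the SD of both groups and the other steps did not.

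miR-199b-5p, known to repress the kinase Dyrk1a, was found at 1.15, 1.68 and 1.61 CPM in the FVB/N hippocampus and at 1.98, 1.79 and 2.48 CPM in the TgR hippocampus. In the PFC it was found at 1.31, 0.885 and 1.78 CPM in FVB/N and at 1.85, 1.46, 2.24 and 1.88 CPM in TgR. All 3 TgR hippocampal libraries were above all 3 FVB/N ones, as 179 of 726 pairs tested there were without overlap in either direction (24.7%), while the PFC groups overlapped. The levels rest on 10 to 47 reads. The group means were 2.08 ± 0.357 CPM in TgR hippocampus, 1.86 ± 0.320 in TgR PFC, 1.48 ± 0.289 in FVB/N hippocampus and 1.32 ± 0.446 in FVB/N PFC. The step from TgR PFC to FVB/N hippocampus was larger than either SD, yet those groups overlapped, and the other steps were within the SD of the groups.

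The arms of mir-214 were scarce. miR-214-5p was found at 0.535, 1.32 and 2.81 CPM in the FVB/N hippocampus (7, 22 and 35 reads) and at 1.02, 0.597 and 0.739 CPM in the TgR hippocampus (19, 9 and 14 reads). In the PFC it was found at 1.01, 1.33 and 0.924 CPM in FVB/N (17, 15 and 13 reads) and at 1.86, 1.04, 2.77 and 1.32 CPM in TgR (27, 10, 42 and 21 reads). The FVB/N hippocampal libraries thus held both the lowest and the highest of the 13 values, and the genotypes overlapped in both regions. The group means were 1.75 ± 0.762 CPM in TgR PFC, 1.56 ± 1.16 in FVB/N hippocampus, 1.09 ± 0.213 in FVB/N PFC and 0.784 ± 0.213 in TgR hippocampus. Only the last step of that order was larger than the SD of both groups, and these groups overlapped.

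miR-214-3p, known to repress Ezh2, was found at 0.459, 0.480 and 0.321 CPM in the FVB/N hippocampus (6, 8 and 4 reads) and at 0.428, 0.133 and 0.581 CPM in the TgR hippocampus (8, 2 and 11 reads). TgR hippocampus replicate 2 was therefore below the floor of 3 reads. In the PFC the levels were 1.01, 0.620 and 0.427 CPM in FVB/N (17, 7 and 6 reads) and 1.44, 1.67, 0.792 and 0.501 CPM in TgR (21, 16, 12 and 8 reads). The 2 highest libraries were both TgR PFC, and the genotypes overlapped in both regions. The means were 1.10 ± 0.547 CPM in TgR PFC, 0.686 ± 0.298 in FVB/N PFC, 0.420 ± 0.0861 in FVB/N hippocampus and 0.380 ± 0.228 in TgR hippocampus, and no neighbours in that order differed by more than the SD of both.

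The first comparison asked whether the transgene was accompanied by other miRNA levels in the hippocampus. No member passed the threshold of edgeR's quasi-likelihood test (adjusted p under 0.05 over all pairs tested), where 25 of 726 pairs did (3.44%), and none of the 4 members tested had an unadjusted p under 0.05, where 127 pairs did (17.5%). DESeq2 called no member either, where it called 52 of all pairs tested (7.16%). The log2 fold change of TgR over FVB/N was −0.11 (SE 0.23, 95% interval −0.62 to 0.40) for miR-199a/b-3p and 0.019 (SE 0.27, −0.59 to 0.63) for miR-199a-5p. It was 0.50 (SE 0.24, −0.054 to 1.05) for miR-199b-5p and −0.93 (SE 0.52, −2.11 to 0.25) for miR-214-5p. 2 members were above 0 and 2 below, with a median of −0.045, beside −0.0031 over all pairs tested. miR-214-3p had too few reads in the hippocampus to pass the filter on low counts and was not tested there. The value for miR-214-5p rests largely on FVB/N replicate 3, without which it was −0.32, and that for miR-199a-5p was −0.31 without TgR replicate 1.

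In the PFC all 5 members had a higher mean in TgR than in FVB/N mice. Their log2 fold changes were 0.43 (SE 0.25, 95% interval −0.13 to 0.99) for miR-199a/b-3p, 0.54 (SE 0.17, 0.14 to 0.94) for miR-199a-5p and 0.45 (SE 0.29, −0.21 to 1.12) for miR-199b-5p. Those of mir-214 were 0.68 (SE 0.37, −0.15 to 1.51) for the 5p arm and 0.57 (SE 0.50, −0.57 to 1.71) for the 3p arm. The 5 values lay close together, and 4 of the 5 intervals included 0. None passed edgeR's threshold, as 1 of 730 pairs tested did (0.137%). An unadjusted p under 0.05 was found for 1 of the 5 members, beside 19 of all pairs (2.6%). DESeq2 called no member, where it called 1 of all pairs tested (0.137%). The median of the members was 0.54, beside 0.0015 over all pairs tested, of which 369 (50.5%) were above 0. The members come from the same libraries, and some from the same hairpin or transcript, so they are not independent of each other. The values above 0 stayed above 0 in all 14 alternative fits, from 0.18 to 0.63 for miR-199a/b-3p and from 0.46 to 0.65 for miR-199a-5p. These fits reuse the same libraries and are no separate support. The value was 1.03 for miR-214-3p without FVB/N replicate 1 and 0.70 for miR-199b-5p without FVB/N replicate 3.

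**Figure D2:**
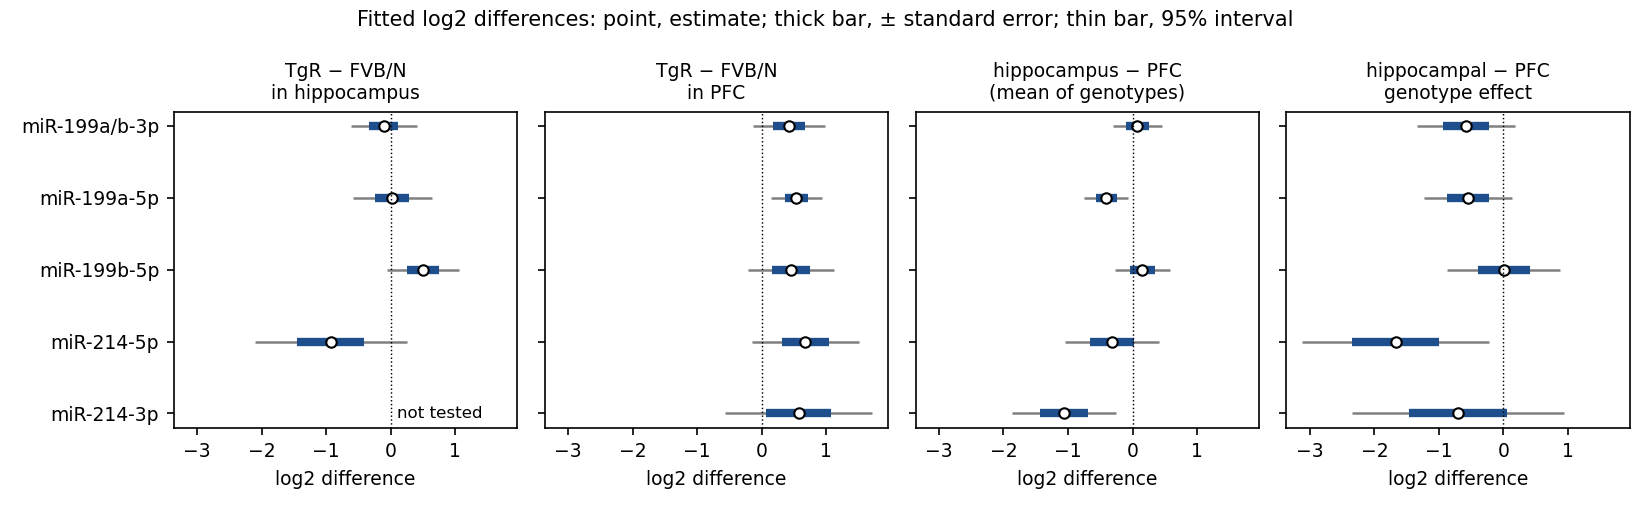
Log2 differences of the 5 members in 4 comparisons: TgR minus FVB/N in the hippocampus and in the PFC, hippocampus minus PFC, and the hippocampal minus the PFC genotype effect. Points are estimates, thick bars ± SE and thin bars 95% intervals. In the PFC all 5 estimates lie between 0.43 and 0.68, while in the hippocampus the 4 tested lie between −0.93 and 0.50.

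Whether the genotype effect differed between the regions was fitted over all 13 libraries. The hippocampal minus the PFC effect was −0.58 (SE 0.36, −1.34 to 0.18) for miR-199a/b-3p, −0.55 (SE 0.32, −1.24 to 0.14) for miR-199a-5p and 0.0068 (SE 0.41, −0.87 to 0.88) for miR-199b-5p. For the arms of mir-214 it was −1.67 (SE 0.68, −3.12 to −0.22) for 5p and −0.71 (SE 0.77, −2.34 to 0.93) for 3p. No member passed the threshold, where 4 of 751 pairs did (0.533%). An unadjusted p under 0.05 was found for 1 member, as for 61 pairs (8.12%). Without FVB/N hippocampus replicate 3 the value of miR-214-5p was −0.98.

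Between the regions, taken as the mean of both genotypes, miR-199a-5p and miR-214-3p had the largest log2 differences of the members. miR-214-3p did not pass the low-count filter in the hippocampus by itself. It entered the fits over all 13 libraries through its higher PFC counts, so its values from those fits are a description only. miR-199a-5p was present at 27.9 ± 6.87 CPM (n = 6) in the hippocampus, where it ranged from 20.6 to 37.8 CPM, and at 38.8 ± 9.19 CPM (n = 7) in the PFC, where it ranged from 27.9 to 50.6 CPM. The regions overlapped, and the log2 difference of hippocampus from PFC was −0.41 (SE 0.16, −0.75 to −0.064). miR-214-3p was present at 0.40 ± 0.16 CPM in the hippocampus and 0.923 ± 0.478 CPM in the PFC, with overlapping libraries and a log2 difference of −1.06 (SE 0.38, −1.87 to −0.26). No member separated the regions without overlap, as 43 of 751 pairs did (5.73%). The difference was 0.074 (SE 0.18, −0.31 to 0.45) for miR-199a/b-3p, 0.15 (SE 0.20, −0.27 to 0.57) for miR-199b-5p and −0.32 (SE 0.34, −1.05 to 0.40) for miR-214-5p. No member passed the threshold here, where 121 of 751 pairs did (16.1%), and 2 had an unadjusted p under 0.05, as 203 pairs did (27%). Leaving out FVB/N hippocampus replicate 2 or TgR hippocampus replicate 1 put miR-199a-5p past the threshold (−0.55 and −0.58), and leaving out TgR PFC replicate 4 did so for miR-214-3p (−1.19). The share of reads on the 5 pairs with the highest counts moved with region too, and its part in these values was not tested.

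The arms of the miR-199 hairpins were in a ratio whose mean was higher in the hippocampus than in the PFC, with overlapping libraries and no test. miR-199a/b-3p had more reads than miR-199a-5p in 13 of 13 libraries. The ratio of 3p to 5p counts was 2.81, 2.34 and 3.89 in the FVB/N hippocampus and 2.50, 2.75 and 2.87 in the TgR hippocampus. In the PFC it was 2.24, 1.41 and 2.49 in FVB/N and 2.19, 1.61, 1.80 and 2.19 in TgR. The mean was 2.86 ± 0.543 (n = 6) in the hippocampus and 1.99 ± 0.389 (n = 7) in the PFC. Within regions the genotypes had means of 3.01 ± 0.793 in FVB/N and 2.71 ± 0.189 in TgR hippocampus, and of 2.05 ± 0.563 and 1.95 ± 0.292 in the PFC, differences smaller than the SD of FVB/N. The 3p reads include those from mir-199b, so this is a ratio of arms over hairpins and not of 1 hairpin.

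Among the 5p reads, which are listed apart for miR-199a and miR-199b, miR-199b-5p made up the minor part in every library, with 3.06 to 8.82% of them. How cleanly reads were assigned between these 5p arms was not tested. Its mean share was 5.10 ± 0.881% in FVB/N hippocampus, 7.26 ± 2.03% in TgR hippocampus, 4.10 ± 1.06% in FVB/N PFC and 4.02 ± 0.831% in TgR PFC. TgR hippocampus replicates 2 and 3 were the highest, and replicate 1, at 4.97%, lay within the range of FVB/N.

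**Figure D3:**
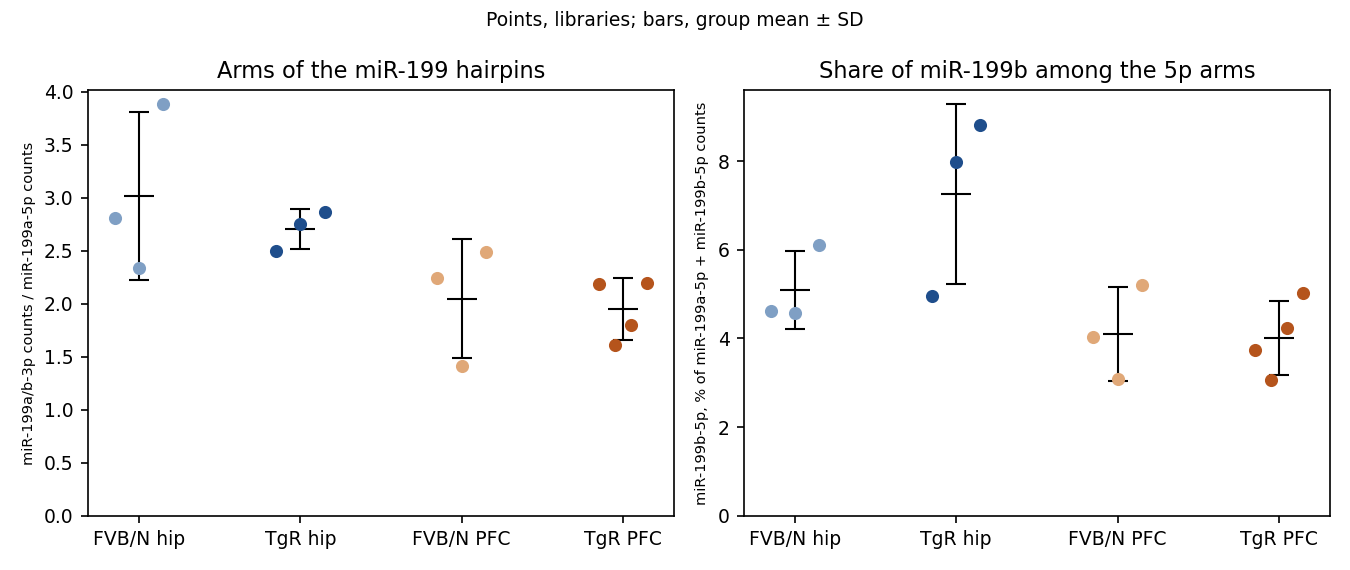
Left, ratio of miR-199a/b-3p to miR-199a-5p read counts. Right, miR-199b-5p as a percentage of miR-199a-5p plus miR-199b-5p counts. Points are libraries and bars the group mean ± SD. The ratio lies between 2.34 and 3.89 in the hippocampal libraries and between 1.41 and 2.49 in the PFC libraries.

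For mir-214 the 5p arm had more reads than the 3p arm. Over the 13 libraries 251 of 377 reads were 5p (66.6%, exact binomial 95% interval 61.6 to 71.3%, which covers counting error only). The 5p arm was ahead in 11 of 13 libraries. Both arms had 17 reads in FVB/N PFC replicate 1, and in TgR PFC replicate 2 there were 10 reads of 5p and 16 of 3p. By group the share of 5p was 78.0% (67.5 to 86.4%) in FVB/N hippocampus, 66.7% (53.7 to 78.1%) in TgR hippocampus, 60% (48.0 to 71.2%) in FVB/N PFC and 63.7% (55.7 to 71.2%) in TgR PFC. These intervals overlap one another. miR-199a/b-3p reads, which can come from 3 hairpins, outnumbered miR-214-3p reads 44.7 to 298.5 to 1 in the libraries with at least 3 reads of the latter.

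**Figure D4:**
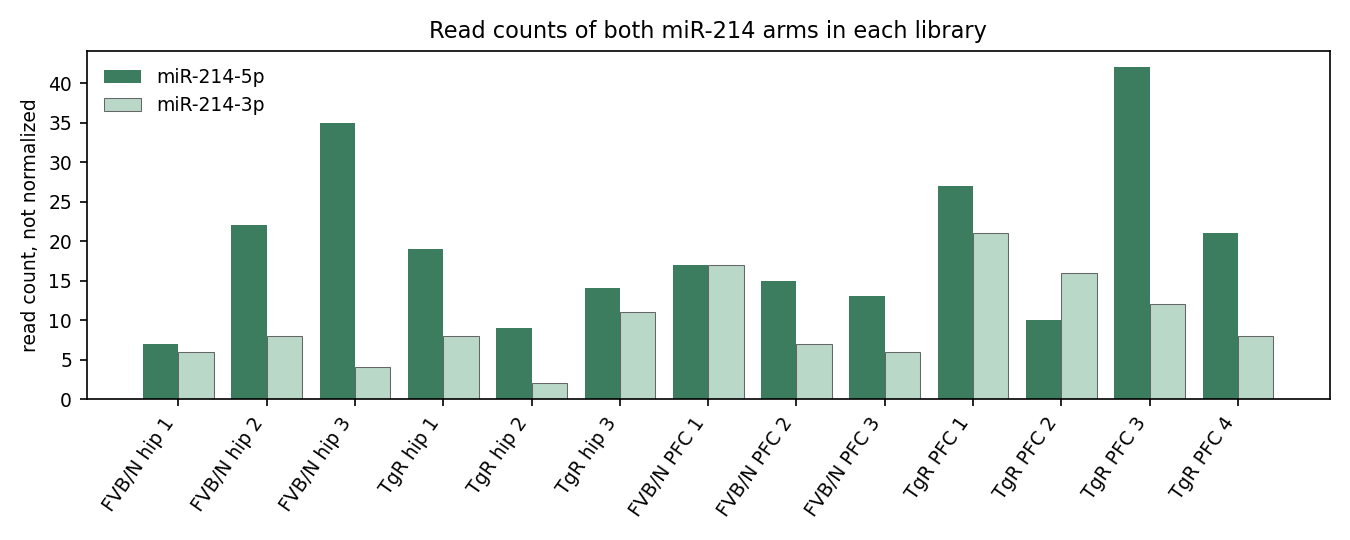
Read counts, not normalized, of miR-214-5p and miR-214-3p in each of the 13 libraries. The 5p bar is the higher in 11 libraries, and no bar exceeds 42 reads.

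Other miRNAs known from mesenchyme and smooth muscle were measured beside the members, from a list of 13 hairpins (mir-143, mir-145a, mir-145b, mir-140, mir-10a, mir-10b, mir-322, mir-503, mir-351, mir-542, mir-450a-1, mir-450a-2 and mir-450b). All 13 had reads, with 24 mature miRNAs, and 17 of these were tested in each comparison. None of the 17 passed the threshold in any of the 4 comparisons. Over all pairs tested, 3.44% passed in the hippocampus and 0.137% in the PFC. Between the regions 16.1% did, and 0.533% for the hippocampal minus the PFC genotype effect. Their median log2 fold change of TgR over FVB/N was 0.14 in the hippocampus (from −0.31 to 0.65) and 0.065 in the PFC (from −0.31 to 0.79), where 12 of 17 were above 0. The members in the PFC thus had a median of 0.54 beside 0.065 for this list, and whether the lists differ was not tested. miR-143-3p, the smooth muscle miRNA with the highest level in the list, was present at 2299.8 ± 383 CPM in FVB/N hippocampus, 2115.2 ± 241.1 in TgR hippocampus, 2671.9 ± 621.4 in FVB/N PFC and 2850.7 ± 153.4 in TgR PFC. Its log2 fold change was −0.11 (SE 0.15) in the hippocampus and 0.064 (SE 0.16) in the PFC. miR-10b-5p and miR-10a-5p had the largest PFC values of the list, 0.79 (SE 0.29) and 0.51 (SE 0.30).

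Summed over the list, these miRNAs reached 2937.0 to 3653.0 CPM in FVB/N hippocampus, 2821.6 to 3329.1 in TgR hippocampus, 2902.1 to 4312.5 in FVB/N PFC and 3709.6 to 4229.0 in TgR PFC. The members summed to 92.4 to 125.3 CPM, 79.9 to 135.8, 70.1 to 116.2 and 117.1 to 157.7 CPM in the same groups. FVB/N PFC replicate 2 was the lowest PFC library and TgR hippocampus replicate 2 the lowest hippocampal library on both sums.

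**Figure D5:**
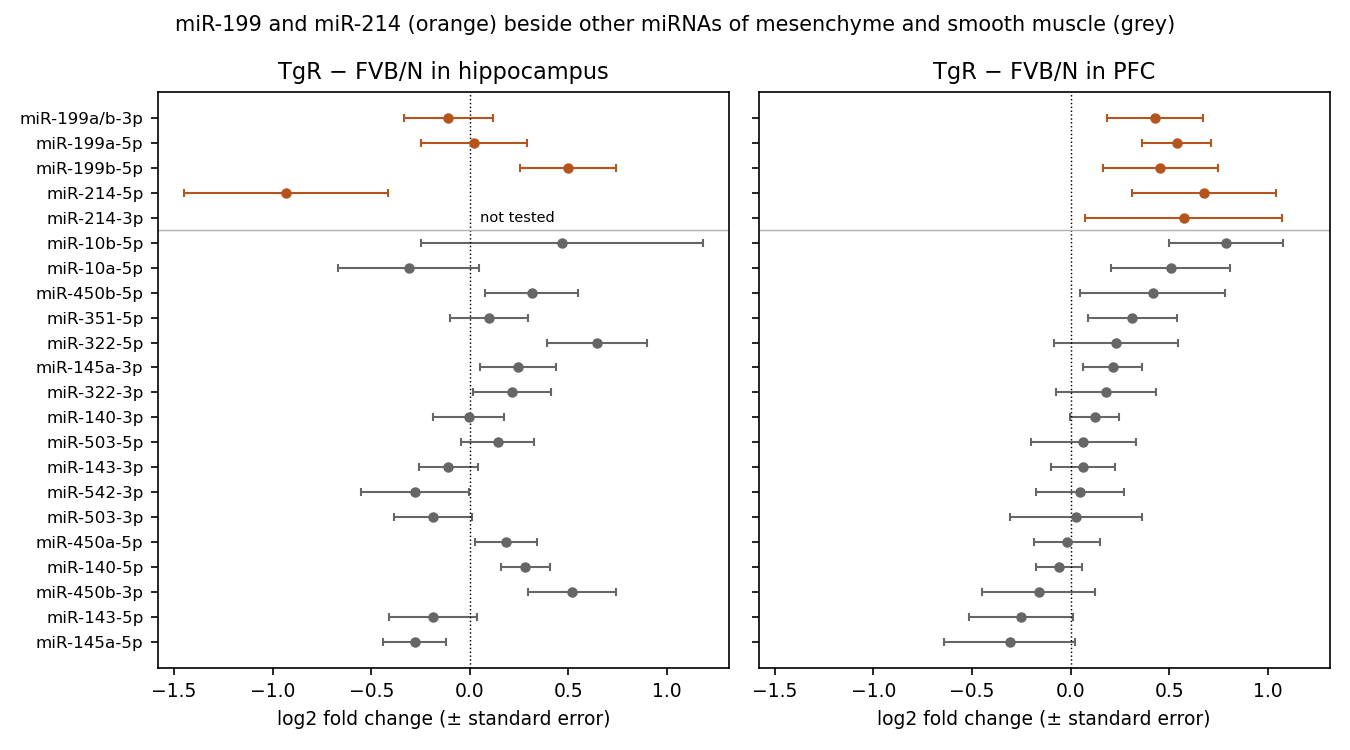
Log2 fold change of TgR over FVB/N, with SE bars, for the members (orange) and the 17 tested miRNAs of the other mesenchymal and smooth muscle list (grey, ordered by the PFC value). In the PFC the members lie between 0.43 and 0.68 and the list between −0.31 and 0.79.

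Lists for other cell types that a dissected piece could hold were measured in the same fits. These lists, like the mesenchymal one, were chosen with earlier results of these data known, so their calls and p-values are a description. In the PFC no miRNA of any of these lists passed the threshold between genotypes, where 1 of 730 pairs tested did (0.137%). In the hippocampus 3 of 9 tested choroid plexus miRNAs and 4 of 5 ciliated cell miRNAs were higher in TgR, as were 2 of 4 skeletal muscle miRNAs, beside 14 of all 726 pairs tested (1.93%). Lower in TgR were 2 of 7 red blood cell miRNAs and 1 of 5 epithelial miRNAs, beside 11 of all pairs (1.52%). Over all pairs the count past the threshold was 1 without FVB/N hippocampus replicate 3, 9 without TgR replicate 3 and 12 without FVB/N replicate 1. The ciliated cell list summed to 142.2, 157.2 and 91.6 CPM in the FVB/N hippocampus and to 857.8, 416.3 and 825.1 CPM in the TgR hippocampus. These groups did not overlap, as was so for 179 of 726 single pairs tested there (24.7%). No endothelial, white blood cell, neuronal or oligodendrocyte miRNA passed there. The miRNA with the highest mean level of each list with a call had these log2 fold changes by edgeR's quasi-likelihood test. miR-34c-5p of ciliated cells had 2.42 (SE 0.34, adjusted p = 0.0156) and miR-451a of red blood cells −0.86 (SE 0.17, adjusted p = 0.0427). miR-1a-3p of skeletal muscle had 0.80 (SE 0.17, adjusted p = 0.0449). Not past the threshold were miR-204-5p of choroid plexus, at 1.49 (SE 0.39, adjusted p = 0.0778), and miR-200a-3p of epithelium, at −1.76 (SE 0.62, adjusted p = 0.171). The choroid plexus list summed to 845.6 to 1238.0 CPM in FVB/N hippocampus and to 5152.1, 1255.1 and 4215.8 CPM in TgR hippocampus replicates 1 to 3. Of the TgR hippocampal libraries, replicate 1 was the highest and replicate 2 the lowest on this list, on miR-199a/b-3p and on miR-199a-5p. In the FVB/N hippocampus the order was the other way for replicate 1, which was the highest on the list, at 1238.0 CPM, and the lowest on both members. The part of the choroid plexus list in their levels was not tested. In the PFC that list summed to 566.4 to 788.4 CPM in FVB/N and 622.1 to 922.9 CPM in TgR, where replicate 4 was the highest on the list and the lowest on miR-199a-5p. The skeletal muscle list summed to 1311.8 CPM in TgR PFC replicate 4 and to 337.3, 249.2 and 245.8 CPM in TgR PFC replicates 1 to 3. In the FVB/N PFC libraries it summed to at least 208.3 and at most 413.3 CPM, a range that held those of TgR replicates 1 to 3. Between the regions 5 of 5 ciliated cell, 4 of 5 oligodendrocyte, 4 of 6 epithelial and 4 of 9 choroid plexus miRNAs were higher in the hippocampus, beside 9.32% of all pairs. Lower there were 3 of 6 white blood cell, 3 of 7 red blood cell, 2 of 6 epithelial and 1 of 6 neuronal miRNAs, beside 6.79%. The part of these cell types in the members' differences between regions was not tested. The endothelial list, led by miR-126a-3p, summed to 11373.8 to 15406.4 CPM in FVB/N PFC and to 10992.4 to 14223.6 CPM in TgR PFC, and these ranges overlapped.

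The miRNAs whose levels most resembled miR-199a/b-3p were sought among 357 mature miRNAs with a mean of at least 10 CPM, by Pearson's r of log2(CPM + 0.5) over the 13 libraries, which share the depth and scaling of each library. miR-152-3p came first (r = 0.80, Spearman's rho = 0.72), followed by miR-203-3p (r = 0.77, rho = 0.57), miR-872-5p (r = 0.70, rho = 0.68), miR-10a-5p (r = 0.66, rho = 0.68), let-7f-5p (r = 0.63, rho = 0.50) and miR-322-3p (r = 0.62, rho = 0.61). The median r of all 357 was 0.087. The 2 libraries farthest from the median were FVB/N PFC replicate 2 and TgR hippocampus replicate 2. Without them r became 0.52 for miR-152-3p, 0.32 for miR-203-3p and 0.28 for let-7f-5p, so that these values rest in good part on those libraries. It also fell for miR-872-5p, to 0.47, and for miR-322-3p, to 0.50, while it was 0.65 for miR-10a-5p. miR-10a-5p and miR-322-3p belong to the other mesenchymal list. The remaining members had r of 0.66 (miR-199b-5p), 0.53 (miR-199a-5p), 0.46 (miR-214-5p) and 0.21 (miR-214-3p) with miR-199a/b-3p, and without those 2 libraries 0.46, 0.47, 0.75 and 0.019.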

How the data were processed

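Small RNA was analysed in 13 libraries. Per the methods of the study, the authors checked reads with FastQC and aligned them to miRBase with miRExpress at its default parameters, and they deposited raw read counts per pair of hairpin and mature miRNA. A pair that a library does not list was taken as 0, and a miRNA with several hairpins is counted at each, so totals hold some reads more than once. Genotype, region and replicate were taken from sample titles.

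The counts were fitted here with edgeR 4.0.16 in R 4.3.3 (TMM, filterByExpr with its minimum count of 10, quasi-likelihood test, Benjamini-Hochberg adjustment over all pairs tested, threshold 0.05), each region by itself and all 13 libraries in 4 groups for comparisons between regions. SE is the size of the log2 fold change over the square root of F, and 95% intervals use the fit's degrees of freedom. For each member with several hairpins 1 row was printed. CPM values were computed from the counts. The members and marker lists were chosen with earlier results of these data known. All members, the highest miRNA of some lists and the 6 miRNAs most like miR-199a/b-3p were named. Simulated counts were used to test the code. Alternatives were DESeq2 1.42.0, other scalings, no filter, leaving out each library and a block for replicate number. No molecular identifiers are described, so intervals from counts cover counting error only.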

Additional observations from a re-analysis of the deposited data

How the results depend on the processing

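No member passed the threshold in any alternative in the hippocampus (13 alternatives), in the PFC (14) or for the hippocampal minus the PFC genotype effect (19). For hippocampus against PFC the reported count of 0 ranged from 0 to 1 as single libraries were left out, with 1 member past the threshold in 3 of 19 alternatives. Over all pairs tested in the hippocampus, the reported count of 25 became 52 with DESeq2, 63 without a filter on low counts and 9 with a replicate block, and ranged from 1 to 28 as single libraries were left out, with 1 without FVB/N replicate 3, 9 without TgR replicate 3 and 12 without FVB/N replicate 1. For the hippocampal minus the PFC genotype effect the reported count of 4 became 26 with DESeq2, 13 without the filter and 10 with the replicate block, and 2 to 8 with a library left out (8 without TgR hippocampus replicate 2, and 2 without FVB/N hippocampus replicate 3, TgR hippocampus replicate 1 or 3, FVB/N PFC replicate 1 or TgR PFC replicate 4). The cause was not tested. The titles number the replicates in each group, but same-numbered libraries deviated together with correlations between −0.271 and 0.456, so the numbers were not taken to pair the samples. Across regions 5 of 6 FVB/N and 4 of 6 TgR libraries correlated best with their own number, and across genotypes 2 of 6 in each region, as a hint from the data only. The FVB/N PFC count files are numbered otherwise than their titles, so which of them shares a number with another library is uncertain, for this check and for the block. Estimates that changed sign were those of miR-199a/b-3p in the hippocampus (1 of 13 alternatives) and for hippocampus against PFC (2 of 19), of miR-199a-5p in the hippocampus (4 of 13) and of miR-199b-5p for the hippocampal minus the PFC genotype effect (4 of 19), all with intervals that included 0 in the reported values. The hippocampal minus the PFC genotype effect of miR-214-3p was −1.12 without FVB/N PFC replicate 1. With 1 row per mature miRNA 19 of 20 group means in CPM were higher by more than the SD (all but miR-214-5p in FVB/N hippocampus), while no fold moved by more than the spread between replicates and no count of calls by over 1.5 times. Ranking likeness by deviations from group means kept 3 of the 6 miRNAs. Depth limits the arms of mir-214, with at most 42 reads in a library.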

Other observations

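Among the other miRNAs known from mesenchyme, the X-linked group of mir-322, mir-503, mir-351, mir-542 and mir-450 had low levels, led by miR-322-3p with a mean of 26.4 CPM (from 17.7 to 34.6 over the 13 libraries) and miR-450a-5p with a mean of 24.8 CPM (from 18.6 to 28.9). In the PFC their log2 fold changes of TgR over FVB/N were 0.18 (SE 0.25) and −0.017 (SE 0.17), and neither passed the threshold of edgeR's test. miR-10b-5p, from the Hoxd cluster, varied more than either, from 1.38 to 32.3 CPM.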
